A study of Homo sapiens with 18 samples.

Results

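The regions described here are 664 RNAPII promoter peaks that were listed in tamoxifen-transformed (TAM) MCF10A-ErSrc cells and shared no base with any peak listed in their non-transformed (NT) progenitors. They were taken from the 11056 peaks of the TAM list, of which the other 10392 overlapped at least 1 of the 11222 NT peaks. In the opposite direction, 1671 NT peaks overlapped no TAM peak. The members were chosen by the peak calls of these lists, so their presence in TAM and absence in NT cells is a description, with no test. RNA levels were not used in choosing them.

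MCF10A-ErSrc is a human breast epithelial line that carries a v-Src oncoprotein switched on by tamoxifen. The NT groups had no tamoxifen and the TAM groups were transformed by it. Both kinds of cells were then given DMSO or triptolide (TPL, labelled TPL-125nM), which targets XPB within the transcription factor TFIIH, over 4 h. The series holds 18 samples, namely 8 RNA-Seq libraries (2 for each of NT, NT + TPL, TAM and TAM + TPL), 8 RNAPII ChIP-Seq samples and 2 inputs, and the ChIP data were used here as 1 peak list for each of the 4 conditions. All groups share the same line and the same fusion oncoprotein, so they describe 1 cell model. The study describes its RNA replicates as biological, and with 2 per group the p-values rest on the spread between these libraries.

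RNAPII is recruited to a promoter together with the general transcription factors, and it often pauses shortly after the start site before it elongates. A peak in an RNAPII ChIP-Seq list marks a place where the enzyme was recovered above input, which can be a recruited, a paused or an elongating polymerase. TFIIH opens the DNA at the start site through XPB, and TPL interferes with that step. In this line, Src activation is known for starting an inflammatory loop through NF-kB, IL6 and STAT3.

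The label of the set was checked against the lists before the results. The names of the TAM peaks carry the words q and 0.1 and, for some peaks, a summit letter, while the names in the NT, NT + TPL and TAM + TPL lists carry the words cutoff and 0.02. The TAM list was thus named after another call setting than the 3 others, and a peak that is new in TAM cells and a peak that passed only the other setting cannot be told apart in these lists. The lists give no height, score or q value, and each stands for a whole condition, so no test between lists was possible. The word promoter held for most members: of the 633 on chromosomes, 623 had an annotated transcription start site (TSS, GENCODE release 44 on build 37) inside the peak or within 1000 bp, and 341 held one inside. The remaining 31 members lay on alternate haplotypes or unplaced sequence.

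The promoters below belong to 5 of the member genes with the largest rises in RNA, so they are not a sample of the start sites of the set. Each is printed 5′ to 3′ on the gene's own strand, from 250 bases before the TSS to 30 bases after it, read from build 37 (hg19). Capitals mark matches on either strand to any of 8 motifs: TATAAA for the TATA box, TGANTCA for AP-1, TTCNNNGAA for STAT, GGGCGG for SP/KLF factors, CCAAT for the CCAAT box, TGACGTCA for the CRE, and the NF-kB and NRF1 motifs. TATAAA matches can overlap each other. The windows are chr2:71680441-71680720 (plus strand) for DYSF, chr18:61311461-61311740 (minus) for SERPINB4, chr9:117880407-117880686 (minus) for TNC, chr2:224903974-224904253 (minus) for SERPINE2 and chr18:61329098-61329377 (minus) for SERPINB3.
DYSF: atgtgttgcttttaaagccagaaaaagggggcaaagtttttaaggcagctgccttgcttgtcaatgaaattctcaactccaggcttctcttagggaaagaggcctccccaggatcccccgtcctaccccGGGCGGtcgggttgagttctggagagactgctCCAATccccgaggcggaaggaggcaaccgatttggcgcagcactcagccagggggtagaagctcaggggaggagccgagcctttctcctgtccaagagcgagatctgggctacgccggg
SERPINB4: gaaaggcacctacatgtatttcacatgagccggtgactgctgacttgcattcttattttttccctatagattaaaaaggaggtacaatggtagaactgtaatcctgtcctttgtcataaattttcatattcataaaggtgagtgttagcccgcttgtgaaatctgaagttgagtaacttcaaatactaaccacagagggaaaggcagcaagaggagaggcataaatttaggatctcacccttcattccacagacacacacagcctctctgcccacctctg
TNC: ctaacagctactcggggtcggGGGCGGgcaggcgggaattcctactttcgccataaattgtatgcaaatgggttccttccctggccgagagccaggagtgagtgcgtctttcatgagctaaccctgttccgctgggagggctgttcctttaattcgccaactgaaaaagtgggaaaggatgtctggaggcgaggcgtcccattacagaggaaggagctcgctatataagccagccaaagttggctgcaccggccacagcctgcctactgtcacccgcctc
SERPINE2: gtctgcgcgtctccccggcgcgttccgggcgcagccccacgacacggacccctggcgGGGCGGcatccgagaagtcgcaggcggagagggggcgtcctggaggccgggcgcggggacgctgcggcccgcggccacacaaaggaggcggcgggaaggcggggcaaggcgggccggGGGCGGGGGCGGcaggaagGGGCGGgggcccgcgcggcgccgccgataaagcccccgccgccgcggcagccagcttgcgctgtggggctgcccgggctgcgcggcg
SERPINB3: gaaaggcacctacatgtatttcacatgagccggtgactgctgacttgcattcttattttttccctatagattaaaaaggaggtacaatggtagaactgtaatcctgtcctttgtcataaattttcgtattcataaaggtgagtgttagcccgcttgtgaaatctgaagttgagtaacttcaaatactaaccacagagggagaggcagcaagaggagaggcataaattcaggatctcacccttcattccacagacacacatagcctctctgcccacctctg

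The SERPINE2 window is 81.4% G and C and holds 4 GGGCGG matches, whereas the SERPINB4 window is 41.8% G and C. SERPINB3 and SERPINB4 are neighbouring paralogs whose windows were the same at 276 of 280 bases, and neither held a match to any of the 8 motifs. A match describes letters and is no evidence of a bound factor, and a window without a match says only that these letters are not in it.

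Member peaks were short. Their width had a median of 217 bp and ran from 129 to 5875 bp, while the TAM peaks with an NT overlap had a median of 423 bp. At least 500 bp were covered by 76 members (11.4%), against 4264 of the peaks with an NT overlap (41.0%). The distance to the nearest NT peak fell into a near and a far group: 241 members (36.3%) had an NT peak within 500 bp, at a median distance of 183 bp, and the other 423 had a median distance of 49284 bp. The 3 members closest to an NT peak lay 4 bp (DYRK1B, a dual-specificity kinase), 5 bp (TOM1, a membrane trafficking adaptor) and 14 bp away (chr11:64546588-64546750). Just outside the set were peaks that shared 1 bp (LCAT), 5 bp (NFIA) and 9 bp (chr3:127794138-127794491) with an NT peak.

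**Figure D1:**
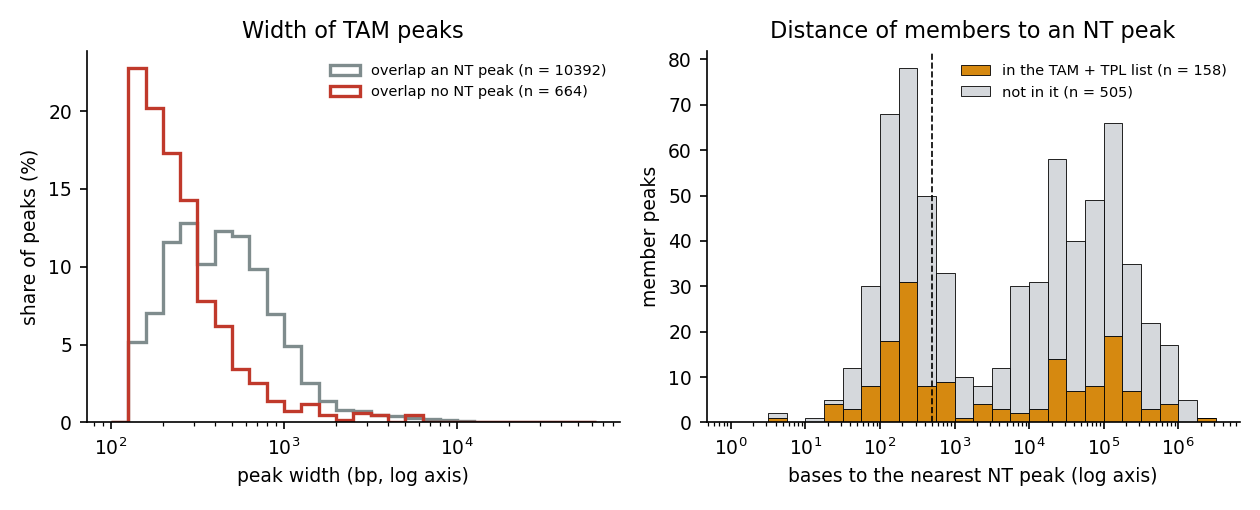
Left, width of TAM peaks in bp on a log axis, as the share of the 664 peaks without an NT overlap (red) and of the 10392 with one (grey). Right, number of member peaks by the bases between them and the nearest NT peak (log axis), with those that overlap a peak of the TAM + TPL list in orange and a dashed line at 500 bp; the distances form a near and a far group, and 1 member on a sequence without NT peaks is left out.

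Along the gene, the centre of 300 of the 633 members on chromosomes (47.4%) lay within 100 bp of the nearest TSS, against 69.1% of the TAM peaks with an NT overlap. It lay farther downstream for 155 members and farther upstream for 178. The centre was in an exon for 325 members (51.3%), in an intron for 210 (33.2%) and outside annotated genes for 98 (15.5%), and for the peaks with an NT overlap the shares were 62.2, 20.9 and 16.9%.

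The start sites held by member peaks differed in base composition from those of the shared peaks. In windows from 250 bases before to 50 after the TSS, the median G and C content was 64.7% in 340 member windows, 67.0% in 9073 windows of TAM peaks with an NT overlap and 63.7% at 19874 protein coding genes. A CpG ratio (observed over expected) of at least 0.6, the usual mark of a CpG-rich promoter, was found in 66.8% of the member windows, in 92.4% of the windows with an NT overlap and in 77.2% of those of NT peaks without a TAM overlap. At all protein coding genes it was 67.6%.

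Among motifs, TGANTCA was in 9.12% of member windows, against 3.75% with an NT overlap, 5.78% for NT peaks without a TAM overlap and 5.40% at all protein coding genes. TATAAA was in 7.65, 4.27, 4.92 and 9.63%, and TTCNNNGAA in 8.24, 5.53, 6.53 and 6.51% of the same 4 sets. GGGCGG was in 66.8, 76.5, 69.3 and 61.4%, CCAAT in 32.6, 35.2, 40.1 and 36.0%, and the NF-kB motif in 2.65, 2.04, 2.46 and 2.0%. TGACGTCA was in 1.47, 3.54, 2.94 and 2.68%, and the NRF1 motif in 1.18, 2.82, 1.80 and 1.70%. Of the 17 member genes whose RNA was called higher in TAM cells, 7 had a CpG ratio of at least 0.6, 4 held TATAAA and 3 held TGANTCA. These shares are descriptions, and with 17 windows each gene weighs heavily.

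**Figure D2:**
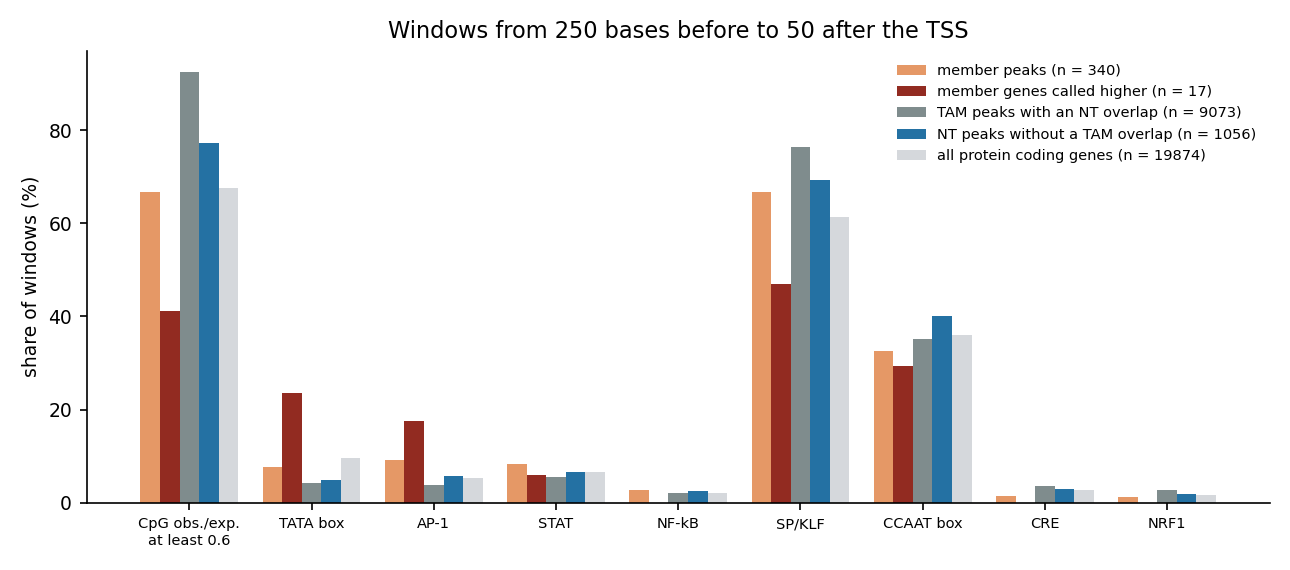
Share (%) of windows from 250 bases before to 50 after the TSS with a CpG ratio of at least 0.6 or with each motif on either strand, for 5 sets of start sites. Member peaks stand at 66.8% for the CpG ratio and the TAM peaks with an NT overlap at 92.4%.

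Few members overlapped a peak listed after TPL. Both TPL lists carry the same call words as the NT list, from which members were absent by choice and which the other TAM peaks overlapped. A low share of members in the TPL lists can thus come from this choice, and an effect of TPL cannot be told apart from it. A peak of the TAM + TPL list was overlapped by 159 members (23.9%, exact 95% binomial interval 20.7 to 27.4%), and by 7874 (75.8%, 74.9 to 76.6%) of the TAM peaks with an NT overlap. The NT + TPL list was overlapped by 135 members (20.3%, 17.3 to 23.6%), although none of them overlapped the NT list. By list, 87 members were in both TPL lists, 72 in the TAM + TPL list only, 48 in the NT + TPL list only and 457 in neither. The intervals cover counting error only, and with 1 list per condition no test over replicates was possible.

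Width moved with this share. Of the 76 members of at least 500 bp, 30 (39.5%, 28.4 to 51.4%) overlapped the TAM + TPL list, against 129 of 588 narrower members (21.9%, 18.7 to 25.5%). The TAM peaks with an NT overlap had 87.8% when at least 500 bp wide and 67.4% when narrower. The members stood lower in both width classes, a comparison under the same limit of how they were chosen. For comparison, the NT peaks without a TAM overlap were found in the NT + TPL list for 29.1% (26.97 to 31.4%) and in the TAM + TPL list for 19.1%.

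**Figure D3:**
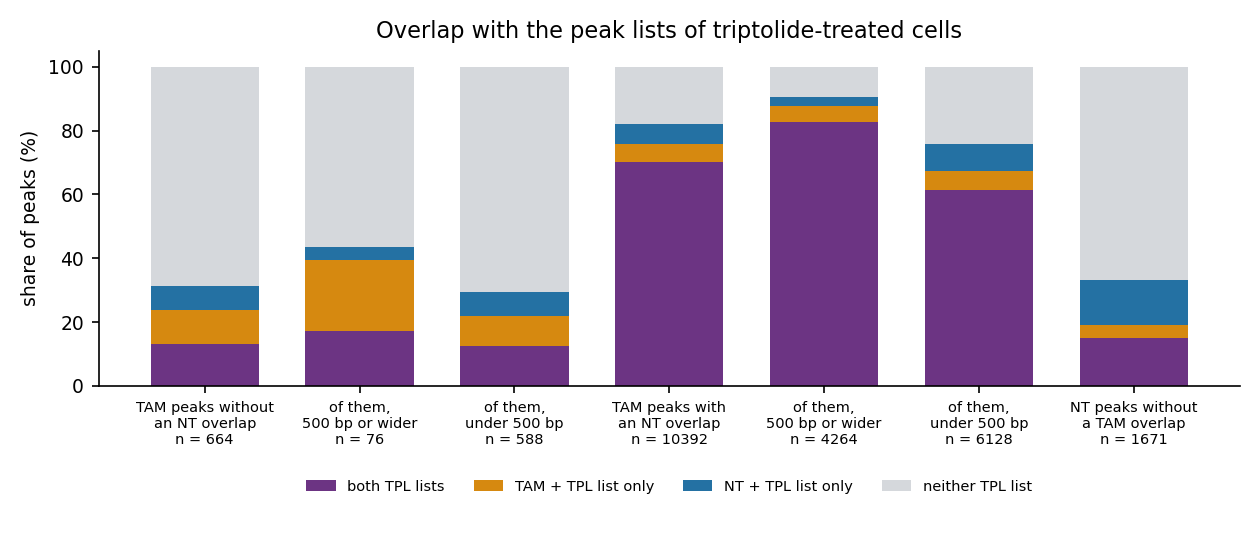
Share (%) of peaks that overlap both TPL lists, the TAM + TPL list only, the NT + TPL list only or neither, for the member peaks, the TAM peaks with an NT overlap and the NT peaks without a TAM overlap, in part split at a width of 500 bp. The grey part, in neither list, is 68.8% for the members and 18.1% for the TAM peaks with an NT overlap. Members were chosen for absence from the NT list, which carries the same call words as the TPL lists.

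The 5 widest members differed in whether TPL-treated TAM cells also listed them. SERPINB3 and SERPINB4 (squamous cell carcinoma antigens, inhibitors of intracellular proteases) were covered by peaks of 5875 bp (chr18:61323518-61329392) and 5593 bp (chr18:61306225-61311817). MUC1, an epithelial mucin, had 5558 bp (chr1:155156257-155161814, with the start of ENSG00000273088, for which no RNA value was used), IRF7 had 3411 bp (chr11:611324-614734) and S100A8 had 3276 bp (chr1:153360520-153363795). The peaks of SERPINB3, SERPINB4 and S100A8 were also in the TAM + TPL list, while those of MUC1 and IRF7 were not, and no NT + TPL peak overlapped any of the 5. MUC1 and IRF7 also had another annotated TSS inside an NT peak.

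To see whether these promoters went with a change in RNA, their genes were followed in the RNA-Seq libraries, which hold between 7461309 and 8349448 expected counts each. Start sites of 368 genes lay in member peaks, of which 308 were protein coding and 51 were long noncoding RNAs. A canonical TSS was inside the peak for 257 of them, and 75 also had a TSS in an NT peak. RNA values were available for 329 genes, and 310 passed the filter on low counts, so that 19 genes with RNA entries and 39 without one are not among the counts below. The median FPKM (fragments per kilobase and mapped reads of the library) of the 310 tested genes was 4.99 for NT and 6.61 for TAM libraries. For the 9058 tested genes of TAM peaks with an NT overlap, the medians were 10.8 and 10.6. Of the 310 genes, 258 already had a mean of at least 1 FPKM in NT cells, so RNA was measured in NT cells for most of these genes.

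In TAM against NT cells, 17 member genes were called higher and 1 was called lower. A call required a Benjamini-Hochberg adjusted p no larger than 0.001 in edgeR's quasi-likelihood test over 16948 genes, and a fitted log2 fold change of 1.2 or more in either direction. That was 5.48% and 0.323% of the tested members, where 0.378% and 0.277% of all genes tested were called in these directions. With the limit on adjusted p relaxed to 0.05, the counts were 47 and 8 members, where 2.53% and 2.35% of all genes were called. An unadjusted p under 0.05 was found for 84 and 35 members, and for 9.51% and 10.4% of all genes. The median log2 fold change was 0.16 in the members and -0.03 in all genes, but -0.30 and -0.50 with GAPDH as the reference, where 10 members were called higher and 2 lower. The share of all genes called with that reference is not given here. Both TAM libraries lay above both NT libraries for 135 members (43.5%) and below them for 80 (25.8%), and for all genes tested these shares were 23.99 and 28.7%. With NT replicate 1 or NT replicate 2 left out, 0 members passed the stricter threshold. The count was 3 without either TAM library and 5 without either TAM + TPL library. In each of these fits all 17 kept the required size and an adjusted p no larger than 0.05.

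A larger share of the genes under wide member peaks was called. The genes of TAM peaks with an NT overlap were not split by width for this, and a gene with several member peaks was placed by 1 of them. Genes under peaks of at least 500 bp had a median log2 fold change of 1.3, with 9 of 43 tested called higher, whereas under narrower peaks the median was 0.12, with 8 of 267 called higher. Genes without a member peak within 500 bp of an NT peak gave 16 of the 17 calls (of 222 tested), and the 88 genes near an NT peak gave 1, PITPNC1, a lipid transfer protein. Among genes that also had a TSS in an NT peak, 1 of 72 was called higher. In reverse, the genes of NT peaks without a TAM overlap had 1 call higher and 10 lower among 755. That set left out genes with a TSS in a TAM peak that overlaps an NT peak, whereas the member genes kept the 72. The genes of TAM peaks with an NT overlap had 27 higher and 15 lower among 9058.

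**Figure D4:**
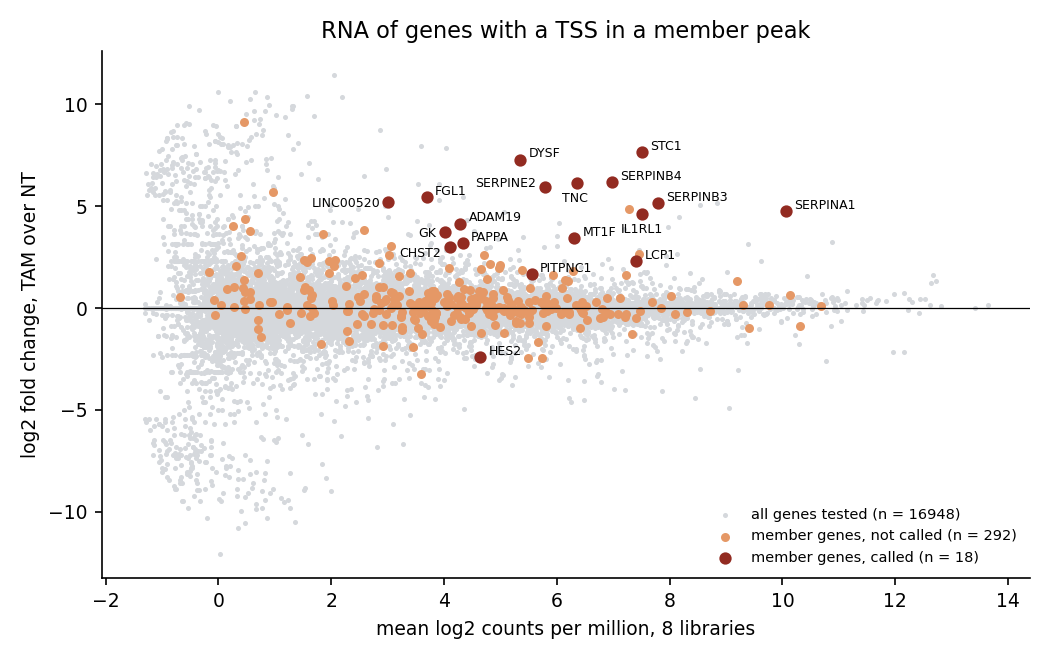
Log2 fold change of RNA in TAM over NT cells against the mean log2 CPM of the 8 libraries, for all 16948 genes tested (grey), 292 member genes that were not called (orange) and 18 that were (dark red, named). The called members lie above 0 except HES2, and most members lie near 0.

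Of the 17 genes called higher, 4 encode serpins, most of which inhibit proteases. They are grouped by role after the calls were known, with no test of the family. SERPINE2 (protease nexin, an inhibitor of thrombin and urokinase) had 2.40 and 2.52 FPKM in NT and 148.09 and 152.92 in TAM libraries, and its peak of 175 bp (chr2:224903938-224904112) lay 81545 bp from any NT peak. Its log2 fold change was 5.95 ± 0.16 (SE, n = 2 per group; edgeR quasi-likelihood adjusted p = 1.9429e-05). The TAM values exceeded the NT values by far more than the libraries of a group differed.

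SERPINB4 had 5.93 and 10.03 FPKM in NT against 569.71 and 592.52 in TAM, and SERPINB3 had 22.52 and 19.39 against 712.08 and 747.08. The log2 fold changes were 6.19 ± 0.28 and 5.14 ± 0.15 (SE; edgeR adjusted p = 9.1252e-05 and 3.0714e-05). Because the paralogs are nearly identical, reads may have been split between them, and how each of them changed is uncertain.

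SERPINA1, which encodes alpha-1 antitrypsin, rose from 54.30 and 44.94 to 1326.0 and 1375.7 FPKM, the highest TAM level among the 17 called genes (log2 fold change 4.78 ± 0.17 SE, edgeR adjusted p = 5.7922e-05). SERPINB2, a neighbour of SERPINB3 on chromosome 18 that was added after its values were seen, had a member peak but no such rise. Its values were 236.11 and 268.30 FPKM in NT and 175.53 and 235.15 in TAM (edgeR adjusted p = 0.867), so the groups lay close together and a listed peak did not come with a higher RNA level at every serpin.

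The called genes also included secreted and matrix proteins, again put together after the calls were known. In the wider EMT and matrix list, 2 of 29 tested genes were higher and 4 lower by the relaxed limit, with a median log2 fold change of -0.016. By that limit 2.53% of all genes tested were higher and 2.35% lower. STC1 (stanniocalcin, a secreted glycoprotein hormone) had 2.91 and 2.64 FPKM in NT and 543.32 and 553.23 in TAM, a fold of the means of 198. Its log2 fold change was 7.64 ± 0.17 (SE, n = 2 per group; edgeR adjusted p = 1.1823e-05), and its peak of 1400 bp (chr8:23711029-23712428) was 170490 bp from an NT peak. No other member that was called had a larger fold.

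TNC, the matrix glycoprotein tenascin C, rose from 0.88 and 1.05 to 75.89 and 56.92 FPKM (log2 fold change 6.12 ± 0.28 SE, edgeR adjusted p = 9.1252e-05). FGL1, a secreted protein of the fibrinogen family, went from 0.79 and 0.83 to 37.29 and 35.11, and PAPPA, a protease of insulin-like growth factor binding proteins, from 0.28 and 0.46 to 3.62 and 3.14. Their log2 fold changes were 5.45 ± 0.40 and 3.20 ± 0.25 (SE; edgeR adjusted p = 0.00060911 and 0.00084421). In all 3 genes the TAM libraries were above both NT libraries.

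Among receptors and membrane proteins, IL1RL1, the receptor of interleukin 33, rose from 7.28 and 7.39 to 175.70 and 175.74 FPKM (log2 fold change 4.60 ± 0.18 SE, edgeR adjusted p = 5.7922e-05). On the same chromosome, IL1R2, a decoy receptor of interleukin 1, had a member peak of 2845 bp and values of 10.51 and 8.82 in NT against 38.47 and 42.79 in TAM, with an adjusted p of 0.002666 in the same edgeR fit that missed the stricter threshold. DYSF (dysferlin, a membrane repair protein) rose from 0.24 and 0.44 to 59.82 and 46.86 FPKM (7.29 ± 0.34 on the log2 scale, edgeR adjusted p = 9.726e-05). ADAM19, a membrane metalloprotease, rose from 0.48 and 0.84 to 11.63 and 11.58. The DYSF, IL1RL1, FGL1, GK and PITPNC1 peaks held a TSS that is not the canonical one, whereas 12 of the 17 called genes had the canonical TSS inside.

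Inside the cell, the genes called higher were the metal-binding MT1F (46.33 and 37.70 to 446.55 and 451.96 FPKM), the actin-bundling LCP1 (20.33 and 22.19 to 103.70 and 102.13), the glycerol kinase GK (0.61 and 0.83 to 9.26 and 9.54), the sulfotransferase CHST2 (2.88 and 2.97 to 23.39 and 23.02) and PITPNC1 (4.71 and 4.70 to 14.37 and 15.57). MT1F, LCP1, CHST2, PAPPA and PITPNC1 were named because they complete the 17 calls. The noncoding LINC00520 rose from 0.49 and 0.67 to 18.83 and 23.13 FPKM (log2 fold change 5.19 ± 0.26 SE, edgeR adjusted p = 0.00012772). Over the 17 genes, the fold of mean FPKM ran from 3.18 to 198, and 10 of them had at least 1 FPKM in NT cells.

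**Figure D5:**
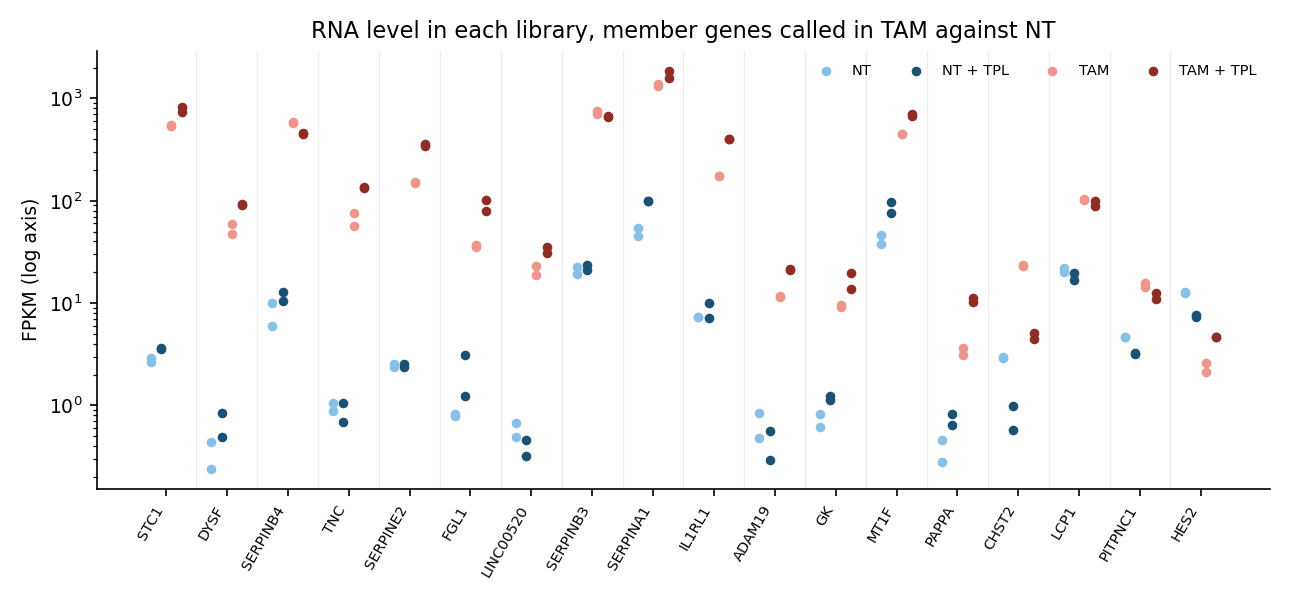
FPKM on a log axis in each of the 8 RNA-Seq libraries for the 18 member genes called in TAM against NT, ordered by log2 fold change, with 1 point a library and 4 colours for NT, NT + TPL, TAM and TAM + TPL. In every gene but HES2 both TAM libraries lie above both NT libraries, and STC1 spans 2.64 to 832.51 FPKM.

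Below the stricter threshold, S100A8, a calcium-binding alarmin of inflamed epithelium, had 70.60 and 47.36 FPKM in NT against 1608.6 and 1764.4 in TAM (edgeR adjusted p = 0.0011792). The gene has 5 RNA entries, and their summed FPKM were 84.42 and 51.79 against 1761.04 and 1902.60. TMEM54 (a membrane protein), ENO2 (neuronal enolase), TFPI (inhibitor of tissue factor), CD59 (inhibitor of complement) and FAM83A (a signalling adaptor of EGFR) had log2 fold changes of 2.59, 3.85, 1.64, 1.3 and 2.64. Their edgeR adjusted p lay between 0.0012445 and 0.0022686. Both TAM libraries of each were above both NT libraries, which the rule for naming these genes required.

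Some member genes had less RNA in TAM cells although their peak was listed there. HES2, a transcriptional repressor of the HES family, had 12.80 and 12.57 FPKM in NT and 2.11 and 2.58 in TAM, and its log2 level fell by 2.42 (SE 0.17, edgeR adjusted p = 0.00050911). RHOF, ANXA8L1 and ROS1 had values of 63.09 and 56.51, 118.39 and 102.59, and 9.06 and 15.81 in NT against 20.17 and 17.38, 18.79 and 21.62, and 2.37 and 2.12 in TAM. ANXA8L1 has near-identical copies, so its level is uncertain. Smaller differences in the same direction, with edgeR adjusted p between 0.015904 and 0.029067, were measured for SLC2A4RG, GPSM2, BLVRB, PCBP3 and the clock gene PER1 (log2 fold changes from -1.91 to -0.90).

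Members with the highest RNA levels did not all change. TIMP1, an inhibitor of metalloproteases, had 3013.9 and 2099.3 FPKM in NT and 2639.2 and 2752.40 in TAM, so the groups overlapped, and its peak lay 491 bp from an NT peak. RPS18, a ribosomal protein gene, had 1409.8 and 1183.8 against 1937.6 and 2082.8 (edgeR adjusted p = 0.190). It lies in the major histocompatibility region, which the peak lists also hold as alternate haplotypes. MUC1, under the third widest member peak, had 1021.38 and 1388.23 FPKM in NT and 803.63 and 495.16 in TAM (edgeR adjusted p = 0.350).

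Of all 16948 genes tested, 310 were member genes, and whether a list held more members than other genes was not tested. Interferon response genes were the list with the most members. Of its 28 genes, 7 had a member peak, and 4 of these 7 (MX1, IFIT1, IRF7 and IFI6) were higher in TAM cells by the relaxed limit of 0.05. Over the whole list 7 of 27 tested genes were higher by that rule and 0 lower. Of all genes tested, 2.53% were higher and 2.35% lower by it. IRF7, a master regulator of interferon genes, had 2.16 and 2.71 FPKM in NT and 10.36 and 8.84 in TAM, and IFI6, which limits viral replication, had 14.66 and 10.60 against 39.74 and 53.80. IFIT1, which binds foreign RNA, had 0.75 and 0.73 against 3.09 and 3.82, and MX1, an antiviral GTPase, 0.04 and 0.12 against 0.66 and 1.80. The MX1 values were low in both groups, so the size of its rise is uncertain. OAS1, IFI27 and IRF2 did not pass (edgeR adjusted p = 0.0768, 0.0933 and 0.426).

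The other lists held few members, to be read beside the 310 member genes among all 16948 tested. The hypoxia and glycolysis list had 3 of 27 (ENO2, which passed the relaxed limit, and ALDOC and PFKFB4, which did not), the matrix list 2 of 33 (TNC and LOXL2), the IL6, STAT3 and NF-kB list 1 of 36 (BCL3, a nuclear partner of NF-kB subunits) and the luminal marker list 1 of 10 (MUC1). No gene of the AP-1, Src and focal adhesion, cell cycle, basal marker and TFIIH lists had a TSS in a member peak. Still, 21 of the 34 cell cycle genes were higher in TAM cells by the relaxed limit, where 2.53% of all genes tested were. BCL3 had 57.69 and 43.80 FPKM in NT and 191.33 and 176.07 in TAM (edgeR adjusted p = 0.010008), and LOXL2, a matrix cross-linking enzyme, had 5.61 and 5.20 against 9.20 and 9.72 (adjusted p = 0.0857). PFKFB4 has 4 RNA entries, and their summed FPKM were 1.04 and 0.70 against 2.93 and 3.30.

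Markers of cell types were read beside these levels. The sum over 9 basal mammary markers was 15086.82 and 13498.16 FPKM in NT and 3996.93 and 3658.45 in TAM libraries. KRT5 (6249.55 and 5776.13 against 1308.36 and 1307.94) and KRT17 (7283.68 and 6144.11 against 1553.61 and 1407.53) made up most of it. The median log2 fold change of the 9 was -1.016. LAMB3 went the other way, with 266.13 and 286.28 against 487.78 and 396.02, and TP63 did not fall (13.16 and 23.61 against 24.19 and 23.04). The sum over 8 mesenchymal markers was 403.86 and 422.23 against 518.90 and 578.11, with VIM at 378.66 and 392.34 against 508.18 and 564.08. Of the other mesenchymal markers, FN1 had 15.95 and 19.85 against 5.81 and 7.12 and COL1A1 3.9 and 3.8 against 0.50 and 0.58, and the median log2 fold change of the 6 tested was -0.648. Over 10 luminal markers the sum was 2000.37 and 2306.81 against 1495.93 and 1157.94, of which MUC1 held 1021.38 and 1388.23 against 803.63 and 495.16. The median log2 fold change of the 8 tested was -0.626. KRT18 (443.27 and 377.09 against 457.12 and 450.27), EPCAM (25.12 and 24.16 against 35.65 and 43.01) and FOXA1 (2.81 and 4.07 against 5.2 and 5.0) went the other way. Of the immune markers, CD68 had 47.20 and 47.06 FPKM in NT and 301.14 and 280.55 in TAM, CD14 had 10.94 and 9.18 against 7.57 and 6.80, PTPRC stayed below 1 FPKM and CD3E at or below 0.16 in these 4 libraries. Endothelial markers summed to at most 1.04. The part of these shifts in the member genes' RNA was not tested, and in cultures a change in the share of a cell state and a change of RNA per cell cannot be told apart.

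With TPL, the RNA of the genes called higher in TAM cells mostly stayed high. In TAM + TPL against TAM libraries, 1 of these 17 genes was called, CHST2, which fell from 23.39 and 23.02 to 4.48 and 5.08 FPKM (log2 fold change -2.33, edgeR adjusted p = 0.00055996). Of all genes tested, 0.844% were called higher and 2.04% lower in this comparison. At an edgeR adjusted p of at most 0.05 with no limit on size, 9 of the 17 were higher with TPL and 1 was lower. Both TAM + TPL libraries lay above both TAM libraries for 12 genes and below them for 5. The share of all genes with such an order is not given here, so these 2 counts describe the 17 genes only. SERPINE2 reached 344.17 and 359.22 FPKM, IL1RL1 398.55 and 397.78, and STC1 832.51 and 743.76, with log2 fold changes of 1.18, 1.13 and 0.48 (edgeR adjusted p = 0.0009109, 0.0024117 and 0.025612). SERPINB4 and SERPINB3 were at 453.90 and 455.54, and 675.05 and 652.72 FPKM, below the TAM libraries, with adjusted p of 0.197 and 0.292 in that fit. FPKM are shares of a library, and no spike-in was used here, so a rise with TPL is a rise relative to other RNAs.

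A peak of 8 of the 17 genes was also in the TAM + TPL list and the peaks of the other 9 were not, and 0 were in the NT + TPL list. Of all 310 tested member genes, 90 had a peak in the TAM + TPL list and 74 in the NT + TPL list. STC1, SERPINE2, SERPINB3, SERPINB4, SERPINA1, TNC, LCP1 and LINC00520 had a peak in both TAM lists. SERPINA1 has 2 member peaks, and its peak of 2948 bp was in the TAM + TPL list while the other, of 852 bp (chr14:94856186-94857037), was not. IL1RL1, DYSF, FGL1, ADAM19, GK, MT1F, CHST2, PAPPA and PITPNC1 had no peak in the TAM + TPL list, and of these CHST2 and PITPNC1 had both TAM + TPL libraries below both TAM libraries. A peak missing from the TAM + TPL list thus came with a lower as well as with a higher relative RNA level.

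Over all members, 5 genes passed the call limits upwards and 8 downwards in TAM + TPL against TAM libraries, 1.61% and 2.58% of those tested, where 0.844% and 2.04% of all genes tested were called. By the relaxed limit the counts were 20 and 49 members, where 9.05% and 10.1% of all genes were called. With GAPDH as the reference, 2 members were called higher and 6 lower, and the share of all genes is not given here. Members whose peak was in the TAM + TPL list had a median log2 fold change of -0.03, and those whose peak was not in it -0.23, beside 0.05 in all genes and -0.16 and -0.46 for the genes of the shared TAM peaks that were and were not in that list. The largest falls were those of BCL3 (191.33 and 176.07 to 13.83 and 9.07 FPKM), NAV1, a neuron navigator protein (13.33 and 10.11 to 0.88 and 0.81), A4GALT, a glycosyltransferase (27.01 and 22.43 to 2.55 and 3.49), BCL7A, a subunit of SWI/SNF complexes (12.76 and 13.34 to 1.78 and 1.64), and MARCKS, an actin-binding kinase substrate (15.99 and 17.97 to 2.72 and 2.55). Of the 8 genes called lower, 1, MARCKS, had its peak in the TAM + TPL list, where 90 of the 310 tested member genes had one.

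Among the 5 genes called higher with TPL in TAM cells, AOC2 and HSPA2 were low before. AOC2, an amine oxidase, went from 0.87 and 0.92 to 16 and 13.22 FPKM, and HSPA2, a heat shock protein, from 1.02 and 1.11 to 13.72 and 11.49. SHISA2, USP49 and GALNT15 had log2 fold changes of 2.51, 2.24 and 2.11 (edgeR adjusted p = 0.00084743, 0.00040002 and 0.000853). GALNT15 has 3 RNA entries, of which 1 was used here. Their summed FPKM were 11.06 and 11.1 in TAM against 35.08 and 36.08 in TAM + TPL libraries. In each of the 5 the TPL libraries were above both DMSO libraries, and the peaks of HSPA2 and SHISA2 were in the TAM + TPL list. With any 1 NT, TAM or TAM + TPL library left out, 0 members were called with TPL in TAM cells in either direction.

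In NT cells, 9 member genes were called higher with TPL and 12 lower, 2.90% and 3.87% of those tested, where 1.22% and 2.71% of all genes tested were called. Of these calls, 2 of the 9 and 5 of the 12 were genes that also had a TSS in an NT peak. BCL3 fell there from 57.69 and 43.80 to 3.14 and 1.63 FPKM, and AOC2 rose from 0.66 and 0.41 to 13.09 and 10.48. The difference between the TPL effects in TAM and NT cells was called for 0 members by the edgeR test, where 0.0% of all genes were called in either direction. An unadjusted p under 0.05 was found for 22 and 38 members and for 5.03% and 5.59% of all genes. DESeq2 called 7 members, and the share of all genes it called is not given here. By the relaxed limit 1 member passed, SDCBP2, where 0.0885% and 0.0767% of all genes were called. GAPDH as the reference gave 2 higher and 16 lower calls among the members for TPL in NT cells, with no share of all genes given here. With any 1 NT, TAM or TAM + TPL library left out, the TPL calls in NT cells were 0 in both directions.

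Between the TPL-treated cells, 18 member genes were called higher in TAM + TPL than in NT + TPL and 2 lower, 5.81% and 0.645% of those tested, where 0.36% and 0.236% of all genes tested were called. These libraries are other ones than those of the DMSO comparison, but both comparisons come from 1 fit and share its estimate of the spread. Their calls are therefore not independent. Of the 17 genes called higher in the DMSO comparison, 16 were called here too, and CHST2 was not (edgeR adjusted p = 0.0013749). CD59 and SDCBP2, a syntenin-like adaptor, were called in addition, with log2 fold changes of 1.75 and 3.14. ANXA8L1 and CLN3, a lysosomal membrane protein, were called lower, CLN3 at an adjusted p of 0.00099986. With 1 TAM + TPL library left out, 4 members were called higher, with 1 TAM library left out 7, and without either NT library or NT + TPL replicate 1, 11.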

How the data were processed

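The authors enriched poly-A RNA of 8 libraries, aligned reads to reference transcripts with Bowtie2 and estimated, with RSEM, the deposited expected counts (not normalized) and the deposited FPKM values (scaled to transcript length and library). Genes without reads are left out of those files and were set to 0. The RNAPII peaks lie on hg19. The study's methods name SOAP2 for alignment and MACS2, with the version given as 1.4.2, for peak calling. There is 1 deposited list per condition, without scores or depth. List starts, which count from 0, were moved by 1.

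Peaks were compared with pyranges 0.1.4 (overlap of at least 1 bp), and genes assigned through GENCODE release 44 TSSs (lifted to build 37) inside a peak. Among 23604 RNA entries, gene IDs matched 21077, RefSeq accessions 2382 and neither 145. Where a gene had several entries, 1 was tested. Rounded counts entered edgeR 4.0.16 (R 4.3.3; TMM, filter by group, quasi-likelihood, Benjamini-Hochberg) as 1 fit of 4 groups, with a biological coefficient of variation of 0.315. Each SE was derived from the test, as the size of the log2 fold change divided by the square root of its F statistic. The script was tested on simulated data. Depth was 7461309 to 8349448 counts per library. Intervals of shares are exact binomial.

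The members, gene lists, tests and named genes were chosen with earlier results of these data known. Named were up to 12 called member genes in each direction by fitted size, up to 8 others in each direction by smallest p, genes of the 5 widest peaks and of the 5 highest TAM levels, members of the gene lists, up to 5 called with TPL in TAM cells in each direction, and the 3 peaks on either side of the overlap limit. The up to 8 others also needed an unadjusted p under 0.05, a mean of at least 1 FPKM and TAM libraries all on one side of the NT libraries. Alternatives were DESeq2 1.42.0, limma 3.58.1 on log2(FPKM + 1), other scalings and filters, other overlap rules, a replicate block and each library left out. A marker gene and a promoter window are not reported here.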

Additional observations from a re-analysis of the deposited data

Results flagged for a closer look

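The TPL effect on SDCBP2, named here after its values were seen, differed between TAM and NT cells in the test of the difference itself. SDCBP2 had 30.88 and 29.67 FPKM in NT libraries, and 16.44 and 11.96 after TPL. In TAM cells the values were 61.32 and 57.18 with DMSO, and 120.58 and 133.55 after TPL. The log2 effect of TPL was 1.05 in TAM and -1.10 in NT cells, a difference of 2.15 ± 0.22 (SE; edgeR quasi-likelihood adjusted p = 0.0378), and each TPL library lay on that side of both DMSO libraries of its cell kind. Of all genes tested, 0.0885% had a difference in this direction that passed the limits of 0.05 on adjusted p and 1.2 on log2 size. The member peak of SDCBP2 was in the TAM + TPL list, and the gene also had a TSS in an NT peak. HES2 followed with a difference of 1.71 and an adjusted p of 0.0528.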

How the results depend on the processing

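Leaving out members with an NT peak within 500 bp left 423 peaks, 86 in the TAM + TPL and 62 in the NT + TPL list, and keeping only peaks of at least 500 bp left 76, 30 and 16. Because the lists hold no score, width took the place of a stricter threshold. Where only an overlap of 0.5 of the TAM peak removed it, the set could only grow, and 247 were in the TAM + TPL list. The size of that set is not given here, so the 247 cannot be read as a share.

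Calls are given as higher and lower for TAM against NT (17 and 1), TPL in TAM (5 and 8), TPL in NT (9 and 12) and TAM + TPL against NT + TPL (18 and 2). Shares of all genes called are not given for the other fits or with a library left out. Those counts thus describe the members only. At least 10 counts in every library gave 29 and 4, 12 and 24, 16 and 24, and 4 lower in the last. DESeq2 gave 45 and 8, 17 and 40, 24 and 34, 33 and 9, and 7 for the difference between TPL effects (0). The limit of 0.05 gave 47 and 8, 20 and 49, 33 and 41, 33 and 12, and 1. By that limit 9.78% and 11.3% of all genes were called for TPL in NT, and 1.87% and 2.42% for TAM + TPL against NT + TPL. GAPDH as the reference gave 10 and 2 for the first, 2 higher for each TPL effect and 1 lower for the last, where DESeq2's size factors and upper quartile scaling also gave 1. The lower calls of the first were 3 without a filter and 2 with limma, which gave 13 lower for TPL in TAM. A TSS within 1 kb, an alternative chosen after seeing the data, gave 622 tested genes, 8 and 22 calls for TPL in TAM and 15 and 26 in NT. Without members near an NT peak, higher calls with TPL were 3 in TAM and 5 in NT. Canonical TSSs gave 5 lower calls for TPL in TAM and 1 lower in the last, and genes without a TSS in an NT peak 7 lower for TPL in NT.

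With a library left out, a lone library is assumed to vary like the other groups. The ranges were 0 to 19 and 0 to 1 for TAM against NT, 0 to 4 and 0 to 17 for TPL in TAM, 0 to 3 and 0 to 9 for TPL in NT, 4 to 14 and 0 to 1 for the last, and 0 to 0 for the difference. Same-numbered libraries share only a number (correlations of deviations -0.135 to 0.0501). With the replicate block the calls were 10 and 0, 0 and 0, 0 and 0, and 10 and 0, and all 10 of the first were among the 17.

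The median log2 fold change of the members, TAM against NT (0.16), was 0.20 for genes without a TSS in an NT peak, 0.22 without members near an NT peak, 0.12 with a TSS within 1 kb, 0.12 with at least 10 counts, 0.19 with DESeq2 or its size factors, 0.20 with upper quartile scaling, 0.11 with limma and -0.30 with GAPDH as the reference, and 0.16 to 0.23 with a library left out. TIMP1 turned to -0.35 with GAPDH as the reference and to -0.15 without NT replicate 2, and was 0.38 without NT replicate 1. Of 826 alternatives for 52 values of named genes, 633 kept direction and call, 46 gained and 145 lost a call, and 2 turned. The cause was not tested.

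With 2 libraries per group and lists without scores, small changes in RNA and the strength of a peak could not be resolved.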
